A study of Danio rerio with 9 samples.

Results

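Impurity I is one of the compounds related to azithromycin that occur beside the drug in macrolide preparations. It was given to zebrafish larvae of the wild-type AB strain at 2 mM for 72 h, from 3 days post-fertilization (dpf) to 6 dpf, and 1 RNA-seq library was made from livers dissected at the end. The control was 1 library of livers from larvae of the same strain and age treated with DMSO, the solvent. The same DMSO library served as the control for azithromycin and for impurities J, Q, R, L, S, and F, each at 2 mM and with 1 library. The study asked whether such impurities harm the liver, and the comparison of impurity I with DMSO asked which liver genes differed after the exposure. How many larvae were pooled into a library is not given in the sources used here.

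The deposited table for impurity I held 876 pathway rows from the 3 databases KEGG, Reactome, and PANTHER. Each row named differentially expressed genes of a pathway with their direction. All rows were used, and genes were matched by Entrez identifier, which gave 412 distinct genes. This was 35.7% of the 1154 genes listed in any of the 8 compound tables. Of the 412 genes, 215 were upregulated (18.6% of the 1154) and 197 were downregulated (17.1%). The upregulated share was 52.2%. In the other 7 tables the number of genes ran from 378 to 427, with 188 to 218 upregulated and 190 to 219 downregulated, and impurity I lay within these ranges.

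The genes listed were called by the authors from 1 treated library against 1 DMSO library and were contained in a pathway. They are not every such gene. The study reports *fosab*, the zebrafish *c-fos* gene, as upregulated in its RNA-seq by impurities J, I, Q, and R, whose tables do not list it. The methods give a fold change of at least 2 for upregulated genes and nothing for downregulated ones. By which further rule genes were listed could not be checked. No replicate stands behind any call, so no p-value or error could be given, and each direction below compares these libraries. The tables hold neither expression levels nor fold sizes, and the depth of the libraries is unknown. All 8 tables share the DMSO library. A gene with opposite directions in a pair of tables therefore differed between the treated libraries themselves, whatever its level in DMSO. That a gene is not listed does not show that its level was unchanged. In whole liver RNA, fewer cells of a type and less RNA per cell cannot be told apart.

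As background, the larval zebrafish liver is already working at this age. Its hepatocytes make plasma proteins such as fibrinogen, store and release glucose, build and burn lipids, and clear foreign compounds through cytochrome P450 enzymes, conjugating enzymes, and ABC transporters. Macrolides such as azithromycin are cationic amphiphilic molecules that collect in lysosomes and bind phospholipids there. Stress on hepatocytes is often read out through kinase cascades of the MAPK family and the transcription factor AP-1, which contains Fos and Jun proteins. Gene roles given below are those of the mammalian counterparts, mainly human and mouse.

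The liver label could not be checked against levels. Of 37 hepatocyte genes in a list, 4 were listed for impurity I (2 up, 2 down), and *fabp10a*, the hepatocyte fatty acid binding protein, was in no table. Over all 18 lists of pathway and cell type genes used below, 33 of 565 distinct genes were listed for impurity I, 16 up and 17 down. Of the 95 list genes that appeared in any table, 34.7% were listed for impurity I, close to the 35.7% of all genes. The lists as a whole therefore held no more impurity I genes than the rest of the tables.

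Of the 299 genes in KEGG rows, 241 fell into 12 groups of pathways, which were put together after the table had been read and can share genes. The other 58 were in no group. The percentage of upregulated genes was highest in cell cycle and DNA repair (70.0%, 14 of 20) and in lipid metabolism (67.7%, 21 of 31). It was lowest in receptors and calcium (37.5%, 9 of 24). The other 9 groups lay between 42.9% and 61.5%, as the plot of genes by pathway group shows.

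**Figure D1:**
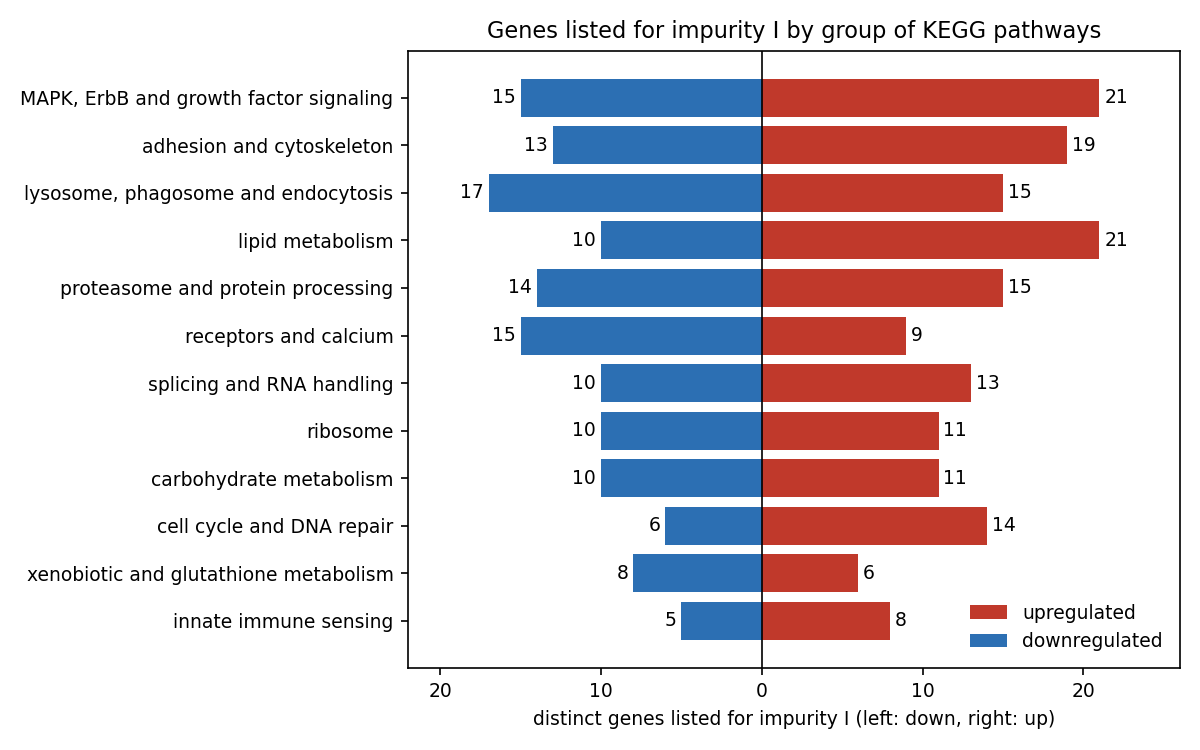
Number of distinct genes listed for impurity I against DMSO in 12 groups of KEGG pathways (horizontal axis, number of genes). Red bars to the right are upregulated and blue bars to the left downregulated genes; lipid metabolism held 21 up and 10 down, and receptors and calcium 9 up and 15 down.

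In 7 genes the direction for impurity I was opposite to that in at least 3 other tables and the same in none. Such genes numbered 3 to 13 in the other 7 compounds, so impurity I was not extreme by this count. Genes opposite in all 7 other tables numbered 2 for impurity I, against 0 to 3 for the others. The first was *fgb*, which encodes the beta chain of fibrinogen, the clotting protein secreted by hepatocytes. *fgb* was downregulated for impurity I and upregulated for azithromycin and for impurities J, Q, R, L, S, and F. The fibrinogen alpha gene *fga* was not listed for impurity I and was up for impurity S. The second was *clasp2*, a protein that stabilizes microtubule plus ends. *clasp2* was upregulated for impurity I and downregulated for all 7 other compounds.

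The other 5 such genes were opposite in fewer tables. *lypla2*, a thioesterase of the lysophospholipase family, was up for impurity I and down for impurities J, Q, R, L, S, and F. *tfdp2*, the partner of E2F factors in cell cycle transcription, was up for impurity I and down for azithromycin and impurities Q, R, L, S, and F. The kinase gene *pak1*, an effector of Rac and Cdc42, was up for impurity I and down for azithromycin and impurities Q, L, S, and F. *me1*, cytosolic malic enzyme, which makes NADPH for fatty acid synthesis, was up for impurity I and down for azithromycin and impurities R and F. *spire1a*, an actin nucleator, was down for impurity I and up for impurities L, S, and F. For these 7 genes the impurity I library lay on the other side of DMSO from each compound named.

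**Figure D2:**
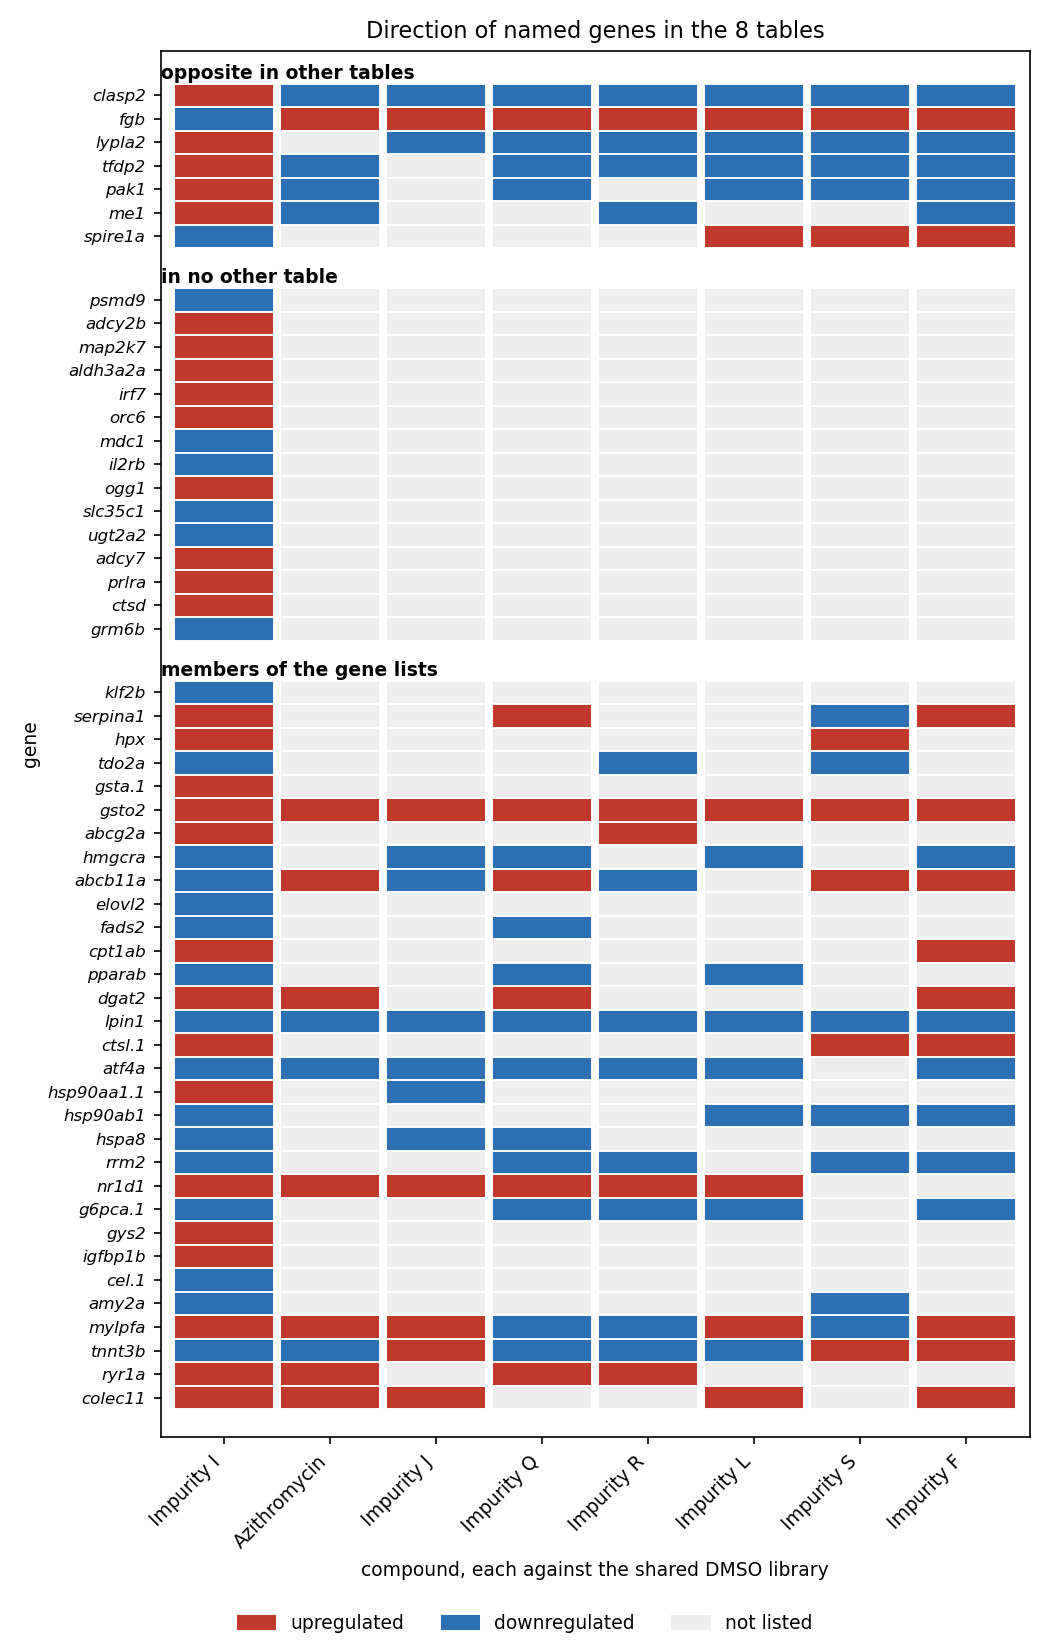
Direction of named genes (rows) in the 8 tables (columns, each compound against the shared DMSO library): red upregulated, blue downregulated, grey not listed. The top block holds the 7 genes opposite in at least 3 other tables, the middle block 15 genes in no other table, and the bottom block the remaining listed members of the gene lists; *fgb* was down for impurity I and up in all 7 others.

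Genes listed for impurity I and in no other table numbered 45, against 49 to 73 for the other compounds. Among the 15 of them in the most pathway rows, several act in signaling. *adcy2b* and *adcy7*, adenylyl cyclases that make cyclic AMP, were both up. *map2k7*, a kinase that activates JNK, was up. *irf7*, a transcription factor of the interferon response, was up, whereas *il2rb*, a receptor chain for interleukins, was down. *prlra*, a prolactin receptor, was up and *grm6b*, a metabotropic glutamate receptor, was down. Genome maintenance was represented by *orc6*, a subunit of the origin recognition complex (up), *ogg1*, the glycosylase that removes oxidized guanine (up), and *mdc1*, a mediator of the DNA damage checkpoint (down). Metabolic and degradative genes in the set were *aldh3a2a*, a fatty aldehyde dehydrogenase (up), *ugt2a2*, a glucuronosyltransferase (down), *slc35c1*, a GDP-fucose transporter of the Golgi (down), *ctsd*, the lysosomal protease cathepsin D (up), and *psmd9*, an assembly chaperone of the proteasome (down). How these genes stood in the other libraries could not be checked without levels.

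In the lipid group more genes were listed for impurity I than for any other compound. The group was put together from pathways of the impurity I table, and only these were counted for the others. Lipid pathways absent from that table could not count, so the choice favoured impurity I in this ranking. For impurity I the group held 31 genes, 21 up and 10 down. The other tables held 15 to 27, for example 27 for impurity S (11 up, 16 down), 25 for impurity Q (17 up, 8 down), and 18 for impurity J (6 up, 12 down). In the KEGG pathway of glycerophospholipid metabolism 11 of 79 background genes were listed (13.9%), 8 up and 3 down. The same percentage over all KEGG gene and pathway pairs was 6.93%. The 10 KEGG pathways highest by it, among those with at least 5 listed and at most 200 background genes, are named here. Their distance from 6.93% is therefore a description of the choice. The upregulated genes covered several steps of membrane lipid turnover. *agpat3* adds an acyl chain to lysophosphatidic acid, *dgkaa* phosphorylates diacylglycerol, *pisd* makes phosphatidylethanolamine from phosphatidylserine, *gpd1b* makes glycerol 3-phosphate, *lypla1* and *lypla2* belong to the lysophospholipase family, and *gpcpd1* cleaves glycerophosphocholine. *adprm*, a pyrophosphatase acting on ADP-ribose and CDP-alcohols, was up as well. The downregulated genes were *lpin1*, the phosphatidic acid phosphatase lipin, *gpd2*, the mitochondrial glycerol 3-phosphate dehydrogenase, and *pld1b*, a phospholipase D. *lpin1* was down in all 8 tables and *pisd* up in all 8. Glycerophospholipid genes were mainly down for azithromycin (2 up, 6 down) and impurity J (2 up, 6 down) and mainly up for impurity Q (7 up, 2 down).

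Storage lipid genes followed a like split. Glycerolipid metabolism had 7 of 48 genes listed (14.6%), 5 up and 2 down, with *dgat2*, the last enzyme of triglyceride synthesis, up. *dgat2* was also up for azithromycin and impurities Q and F. *cel.1*, a bile salt activated lipase made by the exocrine pancreas, was down. All 4 sphingolipid genes listed, of 52 in the pathway (7.69%, near the 6.93% of all KEGG pairs), were upregulated. They were *sgpl1*, which degrades sphingosine 1-phosphate, *acer1*, an alkaline ceramidase, *gba2*, a non-lysosomal glucosylceramidase, and *degs2*, a dihydroceramide desaturase and hydroxylase. Outside KEGG, *cers2b*, a ceramide synthase, was down in a Reactome row. *sgpl1* was up in all 8 tables, whereas *acer1* and *degs2* were up also for impurity Q and not listed for the other 6. Impurity Q gave 4 up and 1 down in the sphingolipid pathway.

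Among 47 genes of fatty acid and triglyceride metabolism, 6 were listed for impurity I, 2 up and 4 down, of 14 that any table listed. The KEGG pathway for biosynthesis of unsaturated fatty acids had 3 of 21 genes listed (14.3%), 1 up and 2 down. *fads2*, the delta-6 desaturase, was down for impurities I and Q, and *elovl2*, which elongates long polyunsaturated fatty acids, was down for impurity I alone. *elovl1b*, from the same elongase family, and *hsd17b12a*, the ketoreductase of the elongation cycle, were up. *cpt1ab*, which brings fatty acids into mitochondria, was up for impurities I and F. For impurity I, as for impurities Q and L, the paired genes of the nuclear receptor PPAR-alpha had opposite directions, *pparaa* up and *pparab* down. Of 42 genes for cholesterol and bile acids, 2 were listed and both were down. *hmgcra*, the rate-limiting enzyme of cholesterol synthesis, was also down for impurities J, Q, L, and F. *abcb11a*, which encodes a bile salt export pump, was down for impurities I, J, and R and up for azithromycin and impurities Q, S, and F.

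**Figure D3:**
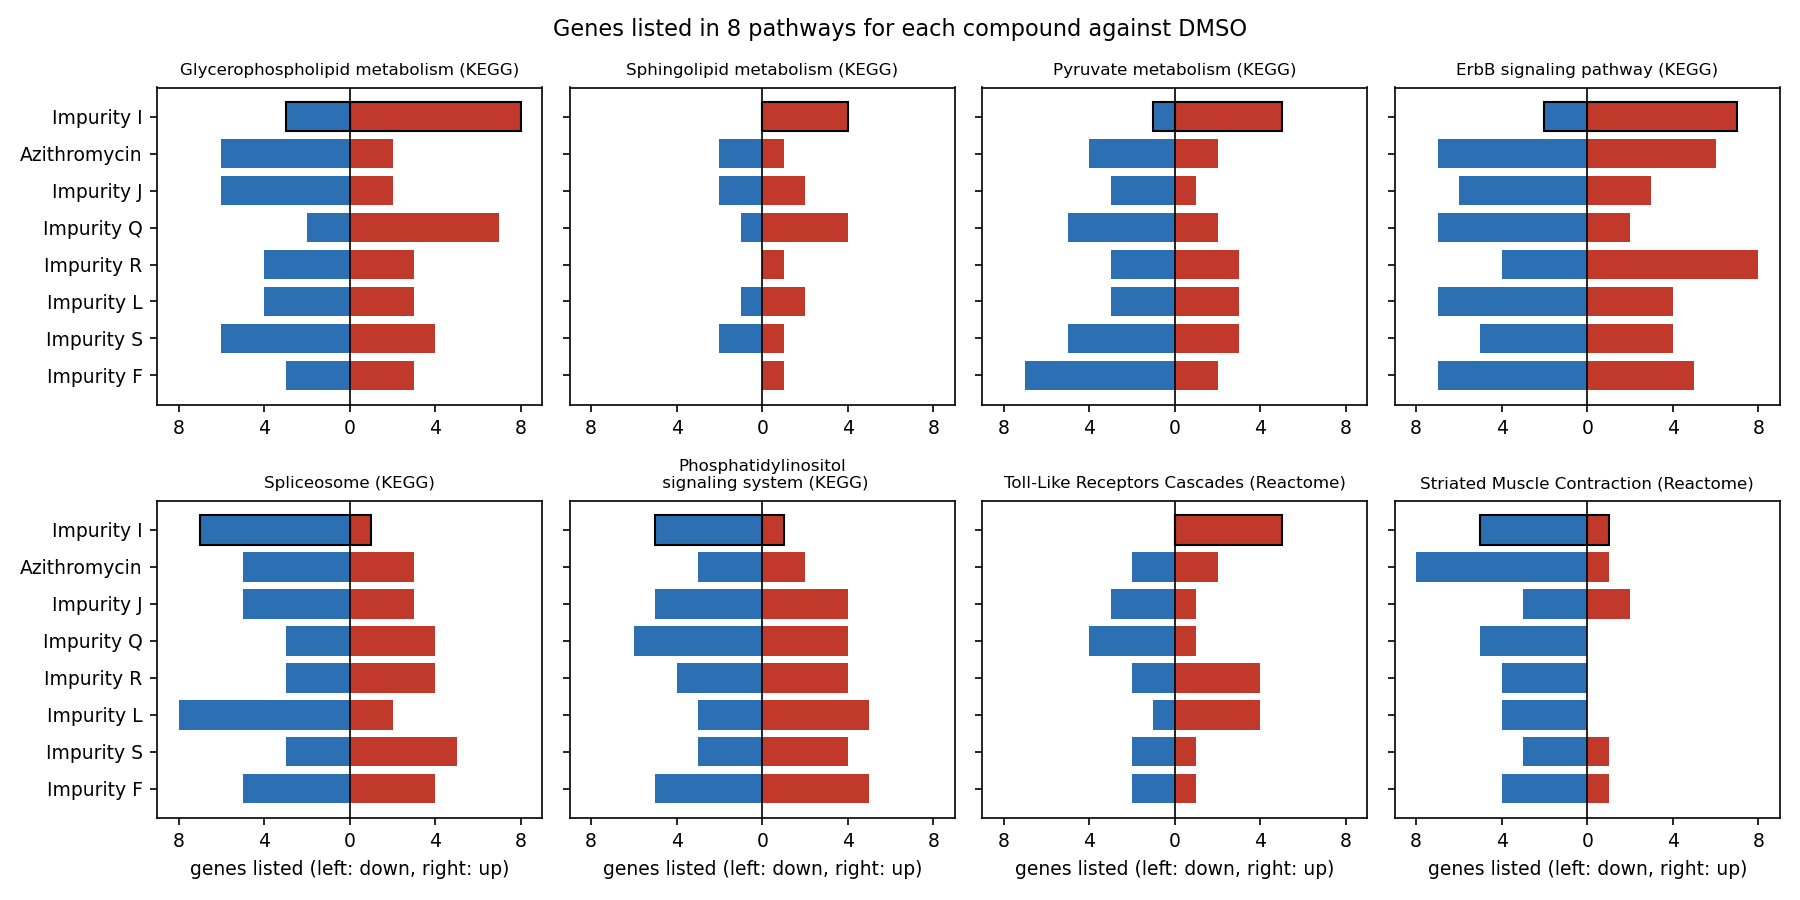
Number of genes listed as upregulated (red, right) and downregulated (blue, left) in 8 pathways for each of the 8 compounds against DMSO (horizontal axis, number of genes; impurity I outlined). For impurity I glycerophospholipid metabolism held 8 up and 3 down and the spliceosome 1 up and 7 down; all compounds share the DMSO library.

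Sugar and organic acid metabolism held 21 genes, 11 up and 10 down, and the pathways within it leaned in different ways. Pyruvate metabolism had 6 of 37 genes listed (16.2%), 5 up and 1 down. The malic enzymes *me1* and *me2*, lactate dehydrogenase *ldhbb*, and the aldehyde dehydrogenases *aldh3a2a* and *aldh9a1a.1* were up, and the cytosolic malate dehydrogenase *mdh1aa* was down. In the same pathway the other compounds gave 2 up and 4 down (azithromycin), 1 and 3 (impurity J), 2 and 5 (impurity Q), 3 and 3 (impurities R and L), 3 and 5 (impurity S), and 2 and 7 (impurity F). Impurity I was thus the compound with the most upregulated and the fewest downregulated genes in this pathway.

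Other sugar pathways held both directions, with 3 up and 2 down of 66 genes in KEGG glycolysis and gluconeogenesis. In the Reactome pathway of carbohydrate metabolism 12 of 134 genes were listed, 3 up (*gys2*, *b3gnt2b*, *nup188*) and 9 down. The Reactome percentage over all pairs was 7.71%, and this pathway stood at 8.96%. Downregulated genes included *g6pca.1*, the glucose 6-phosphatase that frees glucose from the liver, *pfkfb3*, which makes the activator of phosphofructokinase, *bpgm*, a bisphosphoglycerate mutase, *slc2a3b*, a glucose transporter, and *got1*, the cytosolic aspartate aminotransferase. *gys2*, the liver glycogen synthase, and *ugp2b*, which makes its substrate UDP-glucose, were up, and *gys2* was in no other table. Starch and sucrose metabolism, which holds these glycogen genes, had 5 of 33 genes listed (15.2%), 2 up and 3 down. *g6pca.1* was also down for impurities Q, R, L, and F. Of 48 glucose genes, 3 were listed for impurity I and 9 in any table; the third was *igfbp1b*, an insulin-like growth factor binding protein, which was up for impurity I alone. *nr1d1*, a clock repressor that also acts on liver metabolism, was the 1 gene listed of 35 clock genes. It was up for impurity I, as for azithromycin and impurities J, Q, R, and L.

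Of 44 genes in a list for the handling of foreign compounds, 6 were in any table. Of these, 3 were listed for impurity I and all 3 were up. They were *gsta.1* and *gsto2*, glutathione transferases, and *abcg2a*, an efflux transporter. *gsto2* was up in all 8 tables, *abcg2a* in those of impurities I and R, and *gsta.1* in that of impurity I alone. The wider KEGG group of drug, glutathione, and ABC transporter pathways held 14 genes, 6 up and 8 down. The other tables held 9 to 13 genes in these pathways, which were chosen from the impurity I table. Downregulated members included *ugt2a2*, the aldehyde oxidase *aox6*, and *oplah*, an oxoprolinase that returns glutamate from the glutathione cycle. In Reactome rows *cyp3c3*, a cytochrome P450, was up and *porb*, the reductase that feeds electrons to such enzymes, was down. ABC transporters had 5 of 31 genes listed (16.1%), 2 up (*abcc10*, *abcg2a*) and 3 down (*abcb11a*, *abcc1*, *abcg4a*). *cyp1a* and *cyp3a65*, common markers of xenobiotic receptor activity in fish, were not listed.

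Secreted liver proteins went both ways. *serpina1* (alpha-1-antitrypsin), *serpina7* (thyroxine-binding globulin), *hpx* (hemopexin, a heme carrier), and the complement gene *c3b.1* were up, and *fgb*, the complement gene *c3a.3*, and the liver enzyme *tdo2a*, which starts tryptophan breakdown, were down. *serpina7* was down for impurities J, Q, and R and up for impurity L. *hpx* was up only for impurities I and S.

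The MAPK, ErbB, and growth factor group was the largest, with 36 genes, 21 up and 15 down. The KEGG MAPK pathway had 18 of 269 genes listed (6.69%, near the 6.93% of all KEGG pairs), 12 up and 6 down. In the ErbB pathway 9 of 94 were listed (9.57%), 7 up and 2 down. Receptor and adaptor came first in this chain, with *egfra*, the EGF receptor, and *shc1*, which links receptors to Ras, both up. Kinases further down were up as well, namely *araf* of the Raf family, *map2k4a* and *map2k7* of the JNK and p38 arm, *zak*, a MAP3K listed in RefSeq as *map3k20a*, and *pak1*. *egfra* was up also for impurity R. Of the PI3K and mTOR branch, *pik3r1*, the regulatory subunit of PI3K, *akt2l*, an Akt kinase, and *tsc1a*, a brake on mTOR, were down. The kinases *rps6ka1*, a ribosomal S6 kinase, and *mknk1*, which phosphorylates the cap-binding factor eIF4E, were down too. Both stand in the MAPK pathway, so its kinases held both directions. *rps6ka1* stands in the mTOR pathway as well. The mTOR pathway had 7 of 163 genes listed (4.29%, below 6.93%), 2 up and 5 down. Every other table also listed more of its genes down than up, with 1 to 5 up and 6 to 12 down. For ErbB the other tables gave 6 up and 7 down (azithromycin), 3 and 6 (J), 2 and 7 (Q), 8 and 4 (R), 4 and 7 (L), 4 and 5 (S), and 5 and 7 (F).

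Nuclear factors within the MAPK pathway held both directions for impurity I, such as *mef2cb* and *daxx* (up) and *atf4a* (down). Of 30 AP-1 and immediate-early genes, 1 was listed, *klf2b*, a Krüppel-like transcription factor, and it was down. *fosab*, the zebrafish *c-fos* gene of interest to the study, was not listed for impurity I. *fosab* was listed as up for azithromycin and impurity L, so it belongs to pathways of these databases. Its level for impurity I is not given by the table, and no direction or lack of change can be read from its absence. The study itself reports *fosab* as upregulated by impurity I, in its RNA-seq and by qRT-PCR in larval liver. The table for impurity I does not hold that call. *fosaa* was down for impurity R and up for impurity L, *jun* was up for impurity S, and neither was listed for impurity I. Any table listed 9 of the 30 genes.

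Lysosome and uptake genes held both directions. Of 58 lysosome and autophagy genes, 2 were listed for impurity I, of 5 in any table, and both encode proteases and were up, *ctsd* (cathepsin D) and *ctsl.1* (cathepsin L). The KEGG lysosome pathway had 6 of 121 genes listed (4.96%, below 6.93%), 4 up and 2 down. Besides the cathepsins, *gnptab*, which puts the mannose 6-phosphate tag on lysosomal enzymes, and *clta*, clathrin light chain, were up. *ppt2*, a lysosomal thioesterase, and *ap4s1*, an adaptor subunit, were down. No lysosomal membrane marker (*lamp1a*, *lamp2*) was listed. Endocytosis had the most genes of any KEGG pathway apart from the broad term metabolic pathways, 25 of 285 (8.77%), with 11 up and 14 down. The early endosome GTPase *rab5aa* was up in all 8 tables and *ap2m1a*, a subunit of the clathrin adaptor AP-2, down in all 8. Its paralog *ap2m1b* was up for impurities I, L, and S. *vps4b*, the ATPase of the ESCRT machinery, was up and *vps28*, an ESCRT subunit, was down. The autophagy gene *atg101* was down in all 8 tables.

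Protein turnover was represented by the proteasome. In KEGG 7 of 50 genes were listed (14.0%), 5 up and 2 down. Core subunits *psma1* and *psma2*, cap subunits *psmd8* and *psmc3*, and the activator *psme4b* were up. Core subunit *psmb7* and cap subunit *psmd1* were down. In Reactome rows the chaperone *psmd9* was down, and *adrm1*, a ubiquitin receptor of the proteasome, was up. Of these, *psma1* was up for 6 of the other 7 compounds and *psmb7* was down for 6, whereas *psma2* was up only for impurities I and R. Reactome repeats the same genes in many pathways. The 6 genes *psma1*, *psma2*, *psmb7*, *psmd8*, *psmd9*, and *psme4b* each stood in 148 to 156 of the 876 rows, and the 10 genes in the most rows made up 33.1% of the 3689 gene and row pairs. The 8 Reactome pathways with the highest percentage were taken from those with at least 5 listed and at most 200 background genes. Of the 8, 5 shared these 6 proteasome genes, for example degradation of AXIN (7 of 39, 17.9%). They are 1 set of genes and not separate results.

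Chaperones and stress genes held both directions. Of 46 stress genes, 4 were listed for impurity I (1 up, 3 down), of 10 in any table. *hspa8*, a constitutive Hsp70 chaperone, *hsp90ab1*, a constitutive Hsp90, and *atf4a*, the transcription factor of the integrated stress response, were down. *hsp90aa1.1* was up for impurity I and down for impurity J. Outside the list, *cct6a*, a subunit of a cytosolic chaperone complex, was up in Reactome rows. *atf4a* was down for all compounds but impurity S, where it was not listed. The endoplasmic reticulum chaperone *hspa5* and the stress markers *ddit3* and *hmox1a* were not listed.

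Ribosomal protein genes were split. The KEGG ribosome had 17 of 112 genes listed (15.2%), 10 up and 7 down. By subunit this was 4 up and 3 down of the small subunit, 5 up and 4 down of the large subunit, and *mrpl4* of the mitochondrial ribosome, which was up. Some members were called alike for every compound, such as *rps18*, down in all 8 tables. Others were listed for few, such as *rps25*, up for impurities I and J, and *rpl13*, up for impurities I and Q. Impurity R gave 3 up and 13 down in the same pathway. The 2 Reactome pathways with 13 of 70 genes (18.6%), SRP-dependent targeting and nonsense-mediated decay outside the exon junction complex, hold the same 13 ribosomal genes. Ribosomal protein genes have near-identical copies, and how reads were assigned among them was not tested, so these calls are uncertain.

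RNA handling genes differed in direction by pathway. In the KEGG spliceosome 8 of 119 genes were listed (6.72%, near the 6.93% of all KEGG pairs), 1 up (*acin1a*) and 7 down. The downregulated ones included *srsf1a* and *srsf3b*, SR proteins that mark exons, *snrpb2* of the U2 particle, *puf60a*, which helps to recognize the 3′ splice site, *Hnrpc*, an hnRNP, and *hspa8*. In Reactome rows the SR protein gene *srsf3a* and the hnRNP gene *hnrnpk* were up. RNA transport had 8 of 131 genes listed (6.11%, below 6.93%), 7 up and 1 down. In mRNA surveillance 7 of 76 were listed (9.21%), 6 up and 1 down. The transport genes up were *ran*, the GTPase of nuclear transport, *nup188* and *aaas* of the nuclear pore, *pabpc1a*, the poly(A)-binding protein, *eif4ba*, *cyfip2*, and *acin1a*, and *eif2b1* was down. *sympk*, a scaffold of the cleavage and polyadenylation complex, and the Musashi RNA-binding genes *msi1* and *msi2b* were up. Several of these directions stood in other tables too. RNA transport leaned up in every other table, with 7 to 10 genes up and 1 to 5 down. The mRNA surveillance pathway leaned up in all but that of azithromycin (4 up, 5 down). *nup188*, *aaas*, and *sympk* were up in all 8 tables, and the spliceosome had 2 up and 8 down for impurity L. *snrpb2* was up for azithromycin and impurities J, Q, R, and S.

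**Figure D4:**
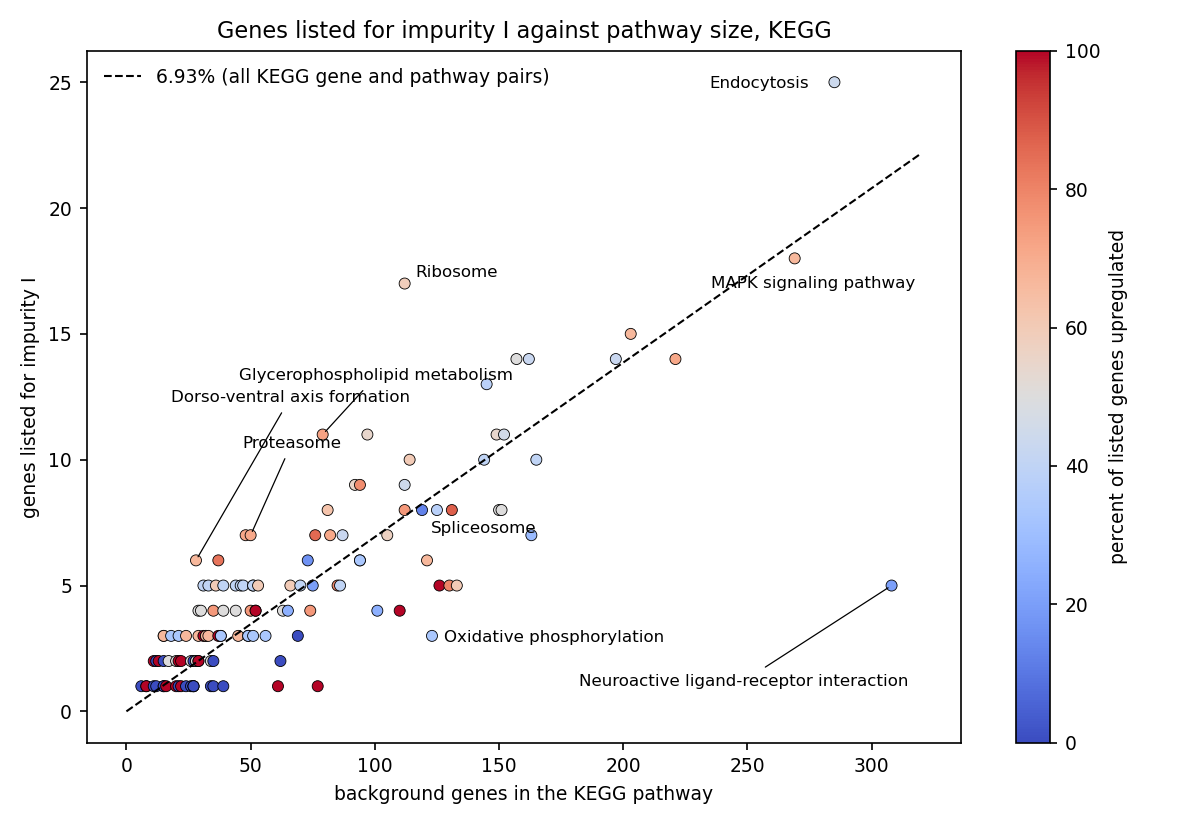
Genes listed for impurity I (vertical axis) against the number of background genes (horizontal axis) in each KEGG pathway, coloured by the percentage of listed genes that were upregulated. The dashed line marks 6.93%, the percentage over all KEGG gene and pathway pairs; ribosome (17 of 112) lay above it and neuroactive ligand-receptor interaction (5 of 308) below, and the term metabolic pathways (66 of 1083) lies outside the axes.

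Cell cycle and DNA repair genes leaned up, 14 to 6. Over the same pathways other tables leaned up too, such as impurity Q (16 up, 5 down) and impurity J (12 up, 4 down). Impurities S and F did not (8 up and 10 down each). All 5 genes listed for impurity I in the cell cycle pathway, of 126 (3.97%), were upregulated. They were *cdc7*, the kinase that fires origins, *orc6*, *tfdp2*, the histone acetyltransferase *crebbpa*, and *cdkn2c*, an inhibitor of CDK4 and CDK6. The KEGG replication genes were up as well (3 of 31, 9.68%), namely *fen1*, the flap endonuclease, *prim2*, a primase subunit, and *rnaseh1*. No table listed a downregulated gene of this replication pathway, and impurity L listed 4 up. Base excision repair had 5 of 36 genes listed for impurity I (13.9%). *ogg1*, *fen1*, and *hmgb1b* were up, and *apex1*, the apurinic site endonuclease, and *tdg.2*, a thymine DNA glycosylase, were down. In other repair pathways *xrcc4* (end joining), *brip1*, and *ercc5* were up, and *ddb2*, a sensor of ultraviolet damage, was down. *ddb2* was down and *ercc5* up in all 8 tables. Of 49 cell cycle and p53 genes, 1 was listed, *rrm2*, the ribonucleotide reductase subunit, which was down. None of the p53 targets *cdkn1a*, *mdm2*, and *gadd45aa* was listed. The KEGG p53 signaling pathway had 3 of 69 genes listed (4.35%), all 3 down. In the files *rrm2* carries 2 Entrez identifiers across the tables, and the value given is that of the identifier in the impurity I table.

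Innate immune sensing held 13 genes, 8 up and 5 down. The 5 listed genes of the Reactome Toll-like receptor cascades, of 58 (8.62%), were all up, namely *irf7*, *map2k4a*, *map2k7*, *hmgb1b*, and *fbxw11b*, a subunit that targets proteins for ubiquitination. In the same pathway impurity Q gave 1 up and 4 down, impurity R 4 up and 2 down, and impurity L 4 up and 1 down. The KEGG pathway of Toll-like receptor signaling held both directions for impurity I. It had 8 of 81 genes listed (9.88%), 5 up and 3 down. *tlr5b*, a flagellin receptor, was up. The cytosolic DNA sensor *mb21d1* (*cgasa* in RefSeq, cGAS) was up and its partner *tmem173* (*sting1*, STING) was down. Both directions stood also for impurities Q, R, S, and F, and *tmem173* was down for azithromycin as well. *casp8l2*, a caspase 8-like gene, was down for impurity I. None of 16 macrophage and neutrophil genes was listed for impurity I, and 3 of them were listed in any table.

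Genes of muscle contraction, which are not typical of liver cells, were listed in every table. Among Reactome pathways with at least 5 listed and at most 200 background genes, striated muscle contraction had the highest percentage for impurity I. It held 6 of 23 genes (26.1%), 1 up and 5 down. The slow and fast muscle genes *tpm3*, *tnnt1*, *smyhc2*, *tnnt3b*, and *tnni2b.2* were down and the myosin light chain *mylz3* was up. The other 7 tables had 0 to 2 genes up and 3 to 8 down in it. Of 30 muscle markers, 3 were listed for impurity I, of 9 in any table, with *mylpfa* and *ryr1a* up and *tnnt3b* down. *smyhc2* was down in all 8 tables. Of 20 genes of the exocrine pancreas, which lies beside the liver, 2 were listed, *cel.1* and the amylase *amy2a*, and both were down. *amy2a* was also down for impurity S. *colec11*, a collectin counted with biliary and stellate genes, was up. No listed gene belonged to the 14 intestine, 12 blood, 13 endothelium, or 12 neuron and skin markers. These lists are short, and genes of such tissues can lie outside them. For example, *chia.3*, of the same symbol family as the intestine markers *chia.1* and *chia.2*, was listed for impurity I as down. The metabotropic glutamate receptor gene *grm6b*, also down, lies outside the lists too. The muscle markers *ryr1a* and *mylpfa* also count in the receptor and calcium group and in the adhesion group, respectively. Levels of these markers were not available. The part of other tissues in the lipid, sugar, protease, receptor, calcium, and adhesion results was therefore not tested.

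Adhesion and cytoskeleton genes numbered 32, 19 up and 13 down. *itga6b* (an integrin), *ezrb* (ezrin), *flncb* (a filamin), *oclna* (occludin), and *cyfip2* of the WAVE complex were up. *actn1* (alpha-actinin), *tjp1b* (the junction protein ZO-1), and *myl12.1* (a regulatory myosin light chain) were down. The KEGG pathway with the highest percentage, dorso-ventral axis formation, 6 of 28 genes (21.4%), belongs here by its members. Among its genes were the actin nucleators *fmn2a* and *fmn2b* (up) and *spire1a* (down), with *egfra* (up) and *ets2* (down). Basal transcription factors, 5 of 39 (12.8%), were split 2 up and 3 down.

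Receptor, calcium, and inositol genes leaned down, 15 to 9. Over the same pathways they leaned down also for impurities Q (10 up, 18 down), F (7 up, 16 down), and L (12 up, 16 down). Impurities S (10 up, 13 down) and J (10 up, 12 down) leaned down too. Only azithromycin (15 up, 14 down) and impurity R (15 up, 13 down) did not. Neuroactive ligand-receptor interaction had few genes listed for impurity I, 5 of 308 (1.62%), 1 up and 4 down. *lepr*, the leptin receptor, was down in all 8 tables. In phosphatidylinositol signaling 6 of 73 genes were listed, 1 up and 5 down. *itpr3*, the inositol trisphosphate receptor that releases calcium, *plcd4a*, a phospholipase C, *impa1*, an inositol phosphatase, *ip6k1*, an inositol hexakisphosphate kinase, and *pik3r1* were down, and *dgkaa* was up. *itpr3* was down in all 8 tables. In the other tables this pathway had 2 to 5 genes up and 3 to 6 down. *cacna1da*, a voltage-gated calcium channel, *camk4*, a calmodulin kinase, and *slc8a2b*, a sodium-calcium exchanger, were down for impurity I, and *ryr1a* and *orai2*, calcium channels of the internal store and the plasma membrane, were up. PANTHER contributed 45 gene and row pairs (3.35% of its pairs) and 20 genes, 9 up and 11 down, and no PANTHER pathway had 5 listed genes.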

How the data were processed

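RNA was extracted with TRIzol from dissected larval livers, and RNA-seq was run by CapitalBio for the authors. The submitters' processing notes name FastQC, fastp, HISAT2, and GRCz11. The gene counter and the caller of differential expression are not given in the sources used here. The authors named a threshold (fold change of 2 or more) for upregulated genes, and none is stated for downregulated genes. The deposited tables give, per pathway, the number of listed genes and of background genes, and the genes with direction. The tables hold numbers of genes and no levels, so the depth per sample is unknown. The tables also hold the authors' p-values and corrected p-values, which were not used, and a file of DMSO was not used here. No per-sample column was left unmapped.

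Tables were read in Python 3.11.15 with pandas 2.3.3 and numpy 2.4.6, and drawn with matplotlib 3.10.9. The reader was tested on simulated tables. Genes were keyed by Entrez identifier, and 411 of 412 were found in RefSeq. For 33 of them the RefSeq symbol was not that of the file, and these 33 include the 8 without a symbol in the file. Where the files and RefSeq differ, the file's symbol is given. The percentage for a database is listed gene and pathway pairs over all background pairs of its pathways in any of the 8 tables. With 1 library per condition no test was run; as no expression values were present, genes were counted.

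Named were all listed members of 18 lists, the first 15 genes in no other table with a symbol, and genes opposite in at least 3 tables and the same in none. Also named were pathways with at least 5 listed and at most 200 background genes, namely the 10 KEGG and 8 Reactome ones with the highest percentage (up to 5 of PANTHER, of which 0 qualified), and KEGG pathways with at least 6 listed genes of which 80% or more shared a direction. Other pathways and genes were named after their values were seen. Members and lists were chosen with earlier results of these data known. Genes not named are given as counts only, and some results are not reported here.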

Additional observations from a re-analysis of the deposited data

How the results depend on the processing

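Of 40 values recomputed under other settings, 27 stayed within 1.5 times the value given, and 13 did not. With Reactome rows only, the impurity I genes numbered 243 (123 up, 120 down), the list genes 17, and the opposite genes 2. With genes in at least 2 rows only, the opposite genes numbered 4. Counting upregulated or downregulated genes alone gave 3.68% and 3.25% in KEGG, 4.48% and 3.24% in Reactome, and 1.56% and 1.79% in PANTHER, lower by construction. With the pathways of the impurity I table only as the denominator, PANTHER gave 7.20%, since fewer pathways entered it. Of 53 named genes, 43 stayed with KEGG rows only, 30 with Reactome rows only, and 45 with genes in at least 2 rows. The printed totals as denominator were added after seeing the data and gave 6.87% in KEGG, 7.44% in Reactome, and 3.14% in PANTHER. No paired analysis was possible because each condition has 1 library, and for the same reason no library could be left out. Calls rest on single libraries of unknown depth, so a gene that is not listed is not shown to be unchanged.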

Other observations

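Glycan and transporter genes were also listed for impurity I. Of the enzymes that extend or trim sugar chains, *b3gnt2b*, an N-acetylglucosaminyltransferase, *man1a2*, a Golgi mannosidase, and *gnpnat1* and *uap1*, both steps in making UDP-N-acetylglucosamine, were up. *mgat4a*, a branching transferase, *st3gal5*, the ganglioside GM3 synthase, *ganab*, the glucosidase that trims new glycoproteins, and *alg3*, a mannosyltransferase of the lipid-linked precursor, were down. *b3gnt2b* was up and *ganab* down in all 8 tables. Among solute carriers *slc7a9*, a carrier of cystine and basic amino acids, was up for impurity I alone, *slc6a4a*, a serotonin transporter, was up in 7 tables, and *slc22a6l*, of the organic anion transporter family, was down in all 8.

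Some paralogs whose symbols differ by a final a or b were both listed. There were 5 such pairs, and in 3 the directions were opposite (*ap2m1a* down and *ap2m1b* up, *pparaa* up and *pparab* down, *srsf3a* up and *srsf3b* down). The pairs *fmn2a* and *fmn2b* (both up) and *prickle1a* and *prickle1b* (both down) moved alike. Whether reads were shared between the members of a pair was not tested.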
